A study of Mus musculus with 5 samples.

Results

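The integrin and laminin chains, 35 of the 17657 genes in the table, were picked by gene symbol from a list of both families; the list itself was drawn up with earlier results of these data known. They comprised 25 integrin chains (17 alpha and 8 beta) and 10 laminin chains (5 alpha, 3 beta and 2 gamma), and all 35 were found. They were measured in RNA of epidermal stem cells, which renew the keratinocytes of the skin, isolated from mouse skin and cultured in the keratinocyte medium KGM2. The libraries labelled KO (2) came from male C57BL/6 mice with Angptl4 knocked out, and the libraries labelled WT (3) from male wild type C57BL/6 mice; all 5 carry the label 8 weeks. Angptl4 encodes a secreted inhibitor of lipoprotein lipase. The sources used here do not say which part of the gene was deleted, nor how many animals or cultures a group holds, so a p-value here reflects the spread among these 5 libraries, which may be technical.

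Integrins are surface receptors made of an alpha and a beta chain that bind proteins of the extracellular matrix or of other cells. Laminins are trimers of an alpha, a beta and a gamma chain and form the sheet of the basement membrane on which basal keratinocytes sit. In the epidermis, integrin α6β4 holds the hemidesmosome, the junction that ties keratins to laminin. The β1 integrins α3β1 and α2β1 bind laminin and collagen at the cell base. High surface levels of Itga6 and Itgb1 products are commonly used to enrich for basal progenitors.

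The libraries held 20283084 to 20773407 expected counts, so 1 CPM (a count scaled to library size) stood for about 20 counts. Angptl4 was measured at 0.86 and 1.11 TPM (abundance scaled for transcript length and library total) in KO1 and KO2, and at 7.34, 6.09 and 4.34 TPM in WT1 to WT3. Its log2 change, KO over WT, was -2.56 ± 0.32 (SE; adjusted p = 0.00458), and with a separate spread for each group the adjusted p was 0.127. The KO libraries differed from each other more than the WT libraries did, with a biological coefficient of variation of 28.9% in KO and 5.22% in WT. Krt5, a keratin of basal keratinocytes, stood at 21857 and 16506 TPM in KO and at 15052 to 15530 TPM in WT, and Krt14, its partner, at 19987 and 16275 TPM in KO and 17116 to 17920 TPM in WT. Of 8 basal keratinocyte markers tested, 2 were higher and 1 lower in KO (37.5%, against 40.8% of all genes tested). Trp63, the basal cell transcription factor, was lower in KO (log2 change -0.73, adjusted p = 0.00518), and Cdh1 and Krt15 were higher. Krt5, Krt14, Col17a1, Dsp and Pkp1 were not called. Krt15 was at 3.08 and 1.66 TPM in KO and at 0.11, 0.17 and 0.58 TPM in WT. It had at most 10 counts in any WT library and passed the count filter through its KO counts. Without WT1, WT2 or WT3 the adjusted p of Cdh1 was 0.0604, 0.0554 and 0.055, that of Krt15 was 0.0649, 0.0711 and 0.0303, and that of Trp63 stayed at or under 0.042. Endothelial markers summed to 1.5 and 2.04 TPM in KO and to 2.21 to 2.36 TPM in WT. Of 2 tested, 1, Kdr, was lower in KO (50%, against 40.8% of all genes). Its log2 change was -1.54 (adjusted p = 0.0293). That p was 0.0998, 0.07 and 0.0979 without WT1, WT2 or WT3. Melanocyte markers summed to 5.25 and 7.93 TPM in KO and to 4.85 to 5.82 TPM in WT, and 0 of 5 tested were called. Of 12957 genes tested, 5286 passed an adjusted p of 0.05, which is 40.8% (20.4% higher and 20.4% lower in KO), so a call by itself was common in this comparison. Where a sentence gives an adjusted p without a tool, it comes from edgeR's quasi-likelihood test with Benjamini-Hochberg adjustment over those 12957 genes.

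Levels of the 35 chains spanned the range from near 0 to 823 TPM. In every library 14 members stood at 10 TPM or above, 13 members stayed below 1 TPM, and 8 lay between. In KO the highest mean TPM belonged to Itgb4, followed by Lama3, Itga3, Lamb3 and Itgb1. In WT the same 5 genes led, in the order Itga3, Lama3, Lamb3, Itgb1 and Itgb4. All members together summed to 3167 and 3198 TPM in KO, against 4334, 3947 and 3844 TPM in WT, with no overlap between the groups. The 17 integrin alpha chains summed to 808 and 920 TPM in KO and to 1580, 1483 and 1422 TPM in WT. The 8 beta chains summed to 1139 and 1031 TPM in KO and to 1112, 1017 and 1005 TPM in WT, so the alpha sums were lower in both KO libraries while the beta sums overlapped.

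**Figure D1:**
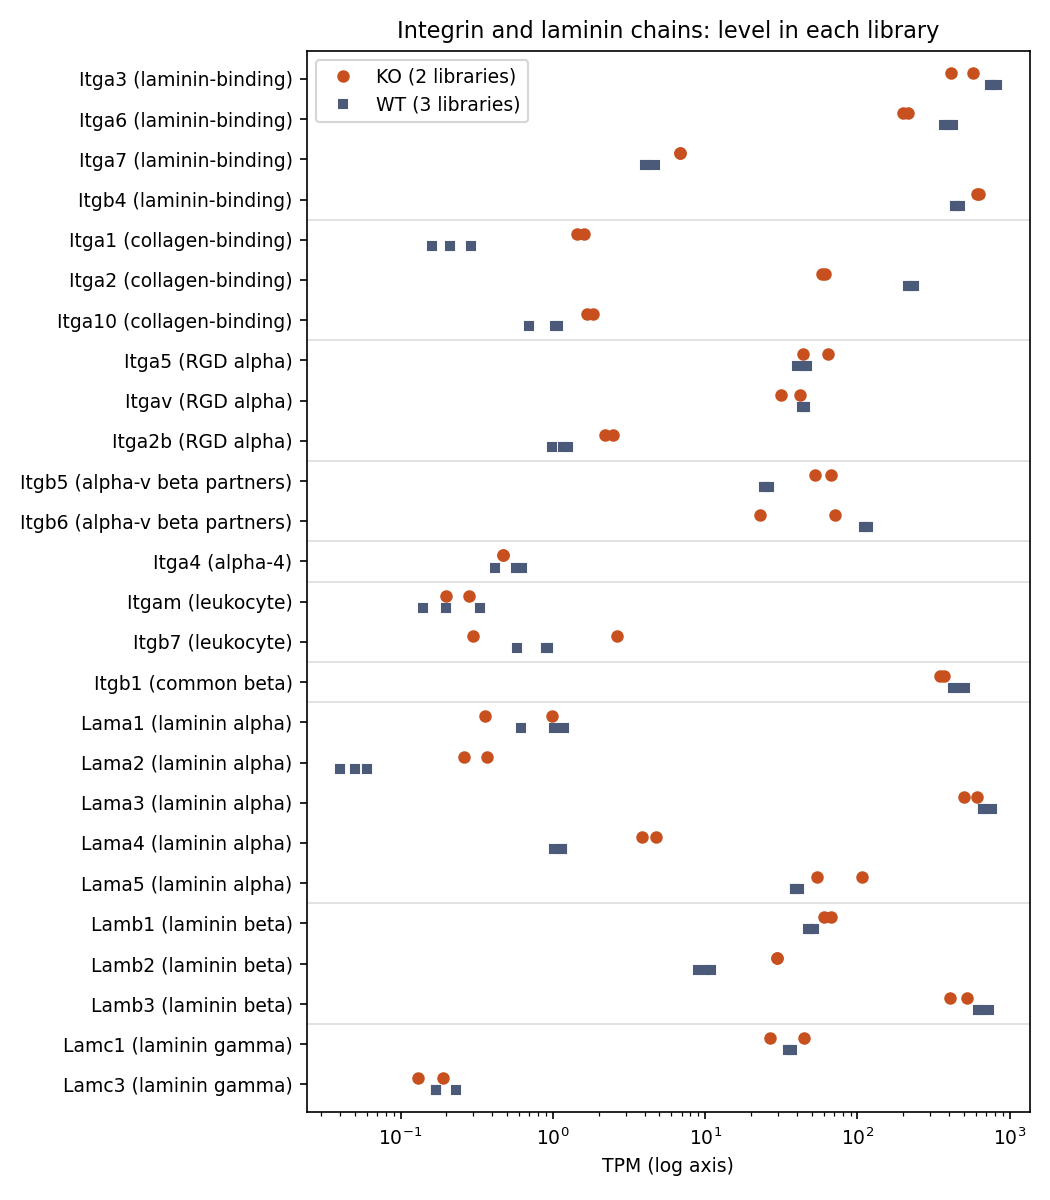
Level in TPM (log axis) of the 26 tested chains, grouped by role, with circles for the KO libraries and squares for the WT libraries. Itgb4, at 631 and 606 TPM in KO, stands right of its WT libraries, and Itga2, at 61.2 and 58.9 TPM in KO, left of its own at 214 to 236 TPM; the 9 chains not tested are not drawn.

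Of the 35 members, 26 had enough counts to be tested, and 11 were higher and 3 lower in KO, 53.8% of those tested against 40.8% of all genes tested. The median log2 change was 0.22 over the 26 members and 0.02 over all genes. Libraries of the groups did not overlap in CPM for 19 of the 26, where 66.4% of all genes tested showed no overlap. With a separate spread for each group, 7 members were higher and 4 lower, where 24.6% of all genes passed. The calls of Itga1, Itga2, Itgb5, Lama2, Lama4 and Lamb2 were made in every alternative that could be fitted for them. These were 16 for Itga2, Itgb5, Lama4 and Lamb2. They were 14 for Itga1 and Lama2, which the stricter count filter and the filter on mean TPM removed. Lama2 had at most 6 counts in any WT library and passed the main count filter through its KO counts. The calls of Itga3, Itgb4, Itga10, Itga2b, Lama5 and Lamb1 were lost when any WT library was left out. That of Itga7 was lost when WT2 or WT3 was left out, and the values stand beside each gene. Leaving out WT1, WT2 or WT3 also cut the calls over all genes, from 5286 to 1957, 2282 and 2244. In bulk RNA, fewer cells of a type and less RNA per cell cannot be told apart.

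**Figure D2:**
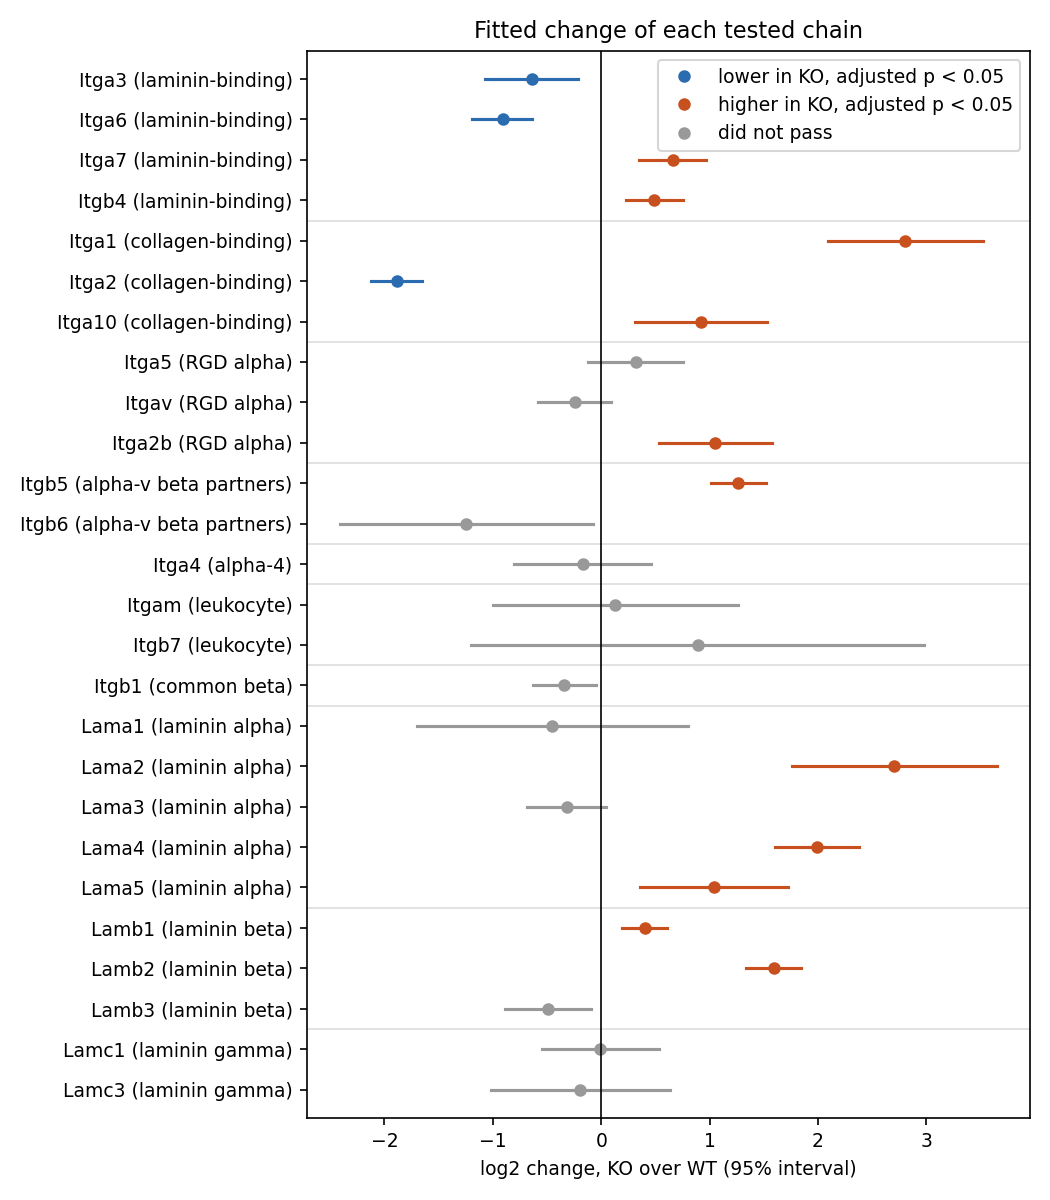
Log2 change of each tested chain, KO over WT, as a point with its 95% interval, grouped by role; orange is higher and blue lower in KO at an adjusted p under 0.05, and grey did not pass. Itga1 at 2.80 and Itga2 at -1.88 lie at opposite ends of the integrins, and Lama2, Lama4 and Lamb2 lie at 2.70, 1.99 and 1.59 among the laminins.

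Among the 4 chains of the laminin-binding integrins, Itga6 and Itga3 were lower in KO and Itgb4 and Itga7 higher. Itga6 (gene 16403, GRCm38.p6 chr2:71786886-71858427, plus strand) encodes the alpha partner of the β4 chain and a partner of β1. Itga6 was at 216 and 199 TPM in KO and at 421, 401 and 369 TPM in WT, and the highest KO library lay well under the lowest WT library. Its log2 change was -0.91 ± 0.11 (SE), with a 95% interval of -1.19 to -0.64 and an adjusted p of 0.00413. Itgb4 (gene 192897, chr11:115974725-116008412, plus strand), the chain whose long tail binds plectin in the hemidesmosome, was at 631 and 606 TPM in KO and at 470, 434 and 434 TPM in WT. Both KO libraries stood above all WT libraries, with a log2 change of 0.49 ± 0.10 (SE; 0.23 to 0.75; adjusted p = 0.0171). Without WT1, WT2 or WT3 the adjusted p of Itgb4 was 0.0837, 0.104 and 0.103.

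The partners of α6β4 therefore differed in opposite directions. The ratio of Itgb4 to Itga6 in TPM was 2.92 and 3.04 in KO, against 1.12, 1.08 and 1.18 in WT. Itgb4 made up 55.4 and 58.8% of all integrin beta chain TPM in KO and 42.3, 42.7 and 43.2% in WT. Its exons share 7.66% of their bases with a lincRNA on the opposite strand, and the sources used here do not give the strand setting of the counting.

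Itga3 (gene 16400, chr11:95044475-95076844, minus strand), whose product pairs with β1 and binds the laminins of the epidermal basement membrane, was the highest of the 35 in WT. Itga3 was at 412 and 573 TPM in KO and at 823, 761 and 746 TPM in WT. The groups did not overlap, but KO1 and KO2 differed from each other more than the WT libraries did. The mean was 492 ± 114 TPM in KO (SD, n = 2) and 777 ± 41 TPM in WT (SD, n = 3), a log2 change of -0.64 ± 0.17 (SE; adjusted p = 0.0335). Without WT1, WT2 or WT3 that p was 0.129, 0.11 and 0.106. The ratio of Itga3 to Itga6 was 1.9 and 2.87 in KO and 1.96, 1.9 and 2.02 in WT, so these alpha chains kept their proportion in KO1 and not in KO2.

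Itga7, the laminin receptor chain best known from muscle, was low. It was at 6.86 and 6.83 TPM in KO and at 4.70, 4.15 and 4.03 TPM in WT. The KO libraries were close to each other and above WT, with a log2 change of 0.66 ± 0.12 (SE; adjusted p = 0.0122). That p was 0.0612 with a separate spread for each group, and 0.0418, 0.0634 and 0.0604 without WT1, WT2 or WT3.

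Over all 5 libraries, the collagen-binding alpha chains held both the largest fall and the largest rise among the tested integrins. Itga2 (gene 16398, chr13:114833081-114932100, minus strand), the collagen receptor chain of basal keratinocytes, was at 61.2 and 58.9 TPM in KO and at 236, 225 and 214 TPM in WT. The libraries within each group were close and the groups far apart, with a mean of 60.1 ± 1.63 TPM in KO (SD, n = 2) and 225 ± 10.8 TPM in WT (SD, n = 3). Expression was 3.69-fold lower in KO (log2 change -1.88 ± 0.09 SE, interval -2.12 to -1.65, adjusted p = 0.000921), and the largest adjusted p over the 16 alternatives was 0.0204. Since Itga2 carried nearly all of this class, the 4 chains summed to 64.4 and 62.3 TPM in KO and to 237, 226 and 216 TPM in WT. Itga2 made up 7.57 and 6.40% of all integrin alpha chain TPM in KO, against 14.9, 15.1 and 15.1% in WT. Its ratio to Itgb1, the only beta chain known to pair with it, was 0.166 and 0.17 in KO and 0.468, 0.505 and 0.502 in WT.

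Itga1 (gene 109700, chr13:114958079-115101964) is the other classical collagen receptor chain, known mainly from fibroblasts, smooth muscle and some T cells. It was at 1.43 and 1.60 TPM in KO and at 0.21, 0.29 and 0.16 TPM in WT, from 90 and 102 counts in KO and 13, 18 and 10 counts in WT. The groups did not overlap and expression was 6.98-fold higher in KO (log2 change 2.80 ± 0.29 SE, interval 2.09 to 3.52, adjusted p = 0.00321). In TPM it remained far below Itga2 in both groups. Of 9 fibroblast markers 8 were tested, and 4 were higher and 0 lower in KO (50%, against 40.8% of all genes). The 4 were Thy1, Col1a1, Dcn and Pdgfrb, with Thy1 the highest at 17.1 and 6.64 TPM in KO. Dcn and Pdgfrb had at most 5 counts in any WT library and passed the count filter through their KO counts. Without WT1, WT2 or WT3, 0, 1 and 0 of the 8 were higher, and the calls over all genes fell from 5286 to 1957, 2282 and 2244. Thy1, for example, then had an adjusted p of 0.0537, 0.0485 and 0.0507. The list summed to 104 and 50.3 TPM in KO and 40.9 to 44.4 TPM in WT, most of it Fbln1, at 71.1 and 38.8 TPM in KO and 39.2 to 39.8 TPM in WT and not called (adjusted p = 0.164). Lum, Pdgfra and Pdgfrb stayed below 1 TPM. No fibroblast marker was listed at 0 in all libraries. Of 6 pericyte and smooth muscle markers 3 were tested and 2, Acta2 and Cspg4, were higher in KO (66.7%, against 40.8% of all genes). Cspg4 had at most 5 counts in any WT library and passed the count filter through its KO counts. The list summed to 1643 and 561 TPM in KO and 228 to 264 TPM in WT, with Rgs5, Myh11 and Des below 1 TPM. Acta2, which made up most of that sum, had an adjusted p of 0.0676, 0.0642 and 0.0611 without WT1, WT2 or WT3, and Cspg4 kept its call. The part of either cell type in the change of Itga1 was not tested.

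Itga10, a collagen receptor chain known from cartilage, was at 1.68 and 1.83 TPM in KO and at 0.70, 1.03 and 1.08 TPM in WT. Its log2 change was 0.92 ± 0.24 (SE; adjusted p = 0.0319). That p was 0.137 with a separate spread for each group, and 0.0898, 0.0915 and 0.0739 without WT1, WT2 or WT3. In GENCODE M21, 33.5% of its exonic bases lie within exons of Gm42957 on the same strand, so its reads may be shared. Itga11, the collagen receptor chain of fibroblasts, had 5 counts in KO1, 0 in KO2, WT1 and WT2, and 3 in WT3, and was not tested.

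Itga2 and Itga1 are neighbours on chromosome 13, 26 kb apart and on the same strand in GENCODE M21, where the deposited table gives Itga1 the opposite strand. They differed in opposite directions in KO. For this reason the 250 bases before their start sites (RefSeq, GRCm38.p6) are given, with that of Itgb5, the beta chain with the largest change among those called, all 5′ to 3′ on the strand of the gene. No base is in capitals in the first and second, and in the third capitals mark the GC box (GGGCGG or CCGCCC).
Itga2 (chr13:114932101-114932350, minus): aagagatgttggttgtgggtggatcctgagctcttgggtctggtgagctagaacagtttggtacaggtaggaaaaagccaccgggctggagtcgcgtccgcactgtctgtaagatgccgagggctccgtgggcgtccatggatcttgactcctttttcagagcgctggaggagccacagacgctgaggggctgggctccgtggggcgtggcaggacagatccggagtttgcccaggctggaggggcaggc
Itga1 (chr13:115101965-115102214, minus): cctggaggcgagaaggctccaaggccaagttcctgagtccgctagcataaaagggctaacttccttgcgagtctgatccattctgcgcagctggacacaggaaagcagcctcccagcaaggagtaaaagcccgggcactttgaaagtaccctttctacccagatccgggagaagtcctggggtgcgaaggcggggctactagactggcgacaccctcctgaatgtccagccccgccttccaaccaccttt
Itgb5 (chr16:33829415-33829664, plus): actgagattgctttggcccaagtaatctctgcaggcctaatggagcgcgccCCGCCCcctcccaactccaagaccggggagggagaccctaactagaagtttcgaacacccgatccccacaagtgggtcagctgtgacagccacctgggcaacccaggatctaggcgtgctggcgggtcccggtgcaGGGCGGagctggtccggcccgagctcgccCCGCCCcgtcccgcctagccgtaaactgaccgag
The window of Itga2 was 60.8% G or C with 12 CpG, that of Itga1 57.6% with 10, and that of Itgb5 65.2% with 18. Searched on both strands, the AP-1 motif TGANTCA and the TATA box TATAAA were not found in these 3 windows, and the GC box was found in that of Itgb5 alone, at 199, 63 and 34 bases before the start site. Over the 23 members with a promoter entry, the AP-1 motif was found in 1, the GC box in 8 and the TATA box in 0 windows. Over all 32851 promoters the shares were 6.75%, 32.7% and 12.4%. Where a motif was found in the printed windows it overlapped no other motif. A match describes these letters and not a site in use.

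Of the alpha chains that recognise the RGD tripeptide of fibronectin and similar ligands, Itga2b was higher in KO, and Itga5 and Itgav were not called. Itga5, the fibronectin receptor chain, was at 64.0 and 43.8 TPM in KO and at 46.3, 45.3 and 40.1 TPM in WT. KO1 lay above all WT libraries and KO2 among them, so the difference rested on KO1 (log2 change 0.32 ± 0.17 SE, interval -0.12 to 0.75, adjusted p = 0.193). Without KO2 the log2 change of Itga5 was 0.58 (adjusted p = 0.000544), and without KO1 it was 0.01 (adjusted p = 0.948). Where 1 KO library is left, it is assumed to vary like the WT libraries.

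Itgav, the alpha chain shared by receptors for vitronectin and latent TGF-β, was at 42.0 and 31.6 TPM in KO and at 45.5, 43.3 and 44.3 TPM in WT. Both KO libraries lay below WT, KO1 only just, with a log2 change of -0.24 ± 0.13 (SE; interval -0.58 to 0.09; adjusted p = 0.192). Without KO1 it was -0.47 (adjusted p = 0.000236). Itga2b, known as the platelet fibrinogen receptor chain, was at 2.19 and 2.48 TPM in KO and at 1.26, 0.98 and 1.17 TPM in WT. The groups did not overlap (log2 change 1.05 ± 0.21 SE, adjusted p = 0.0145). The p of Itga2b was 0.0652 with a separate spread for each group, and 0.0571, 0.065 and 0.0615 without WT1, WT2 or WT3. Itga8, a receptor chain of mesenchymal cells, had 5 and 6 counts in KO and 1, 2 and 1 in WT, a ratio of CPM of 4.19 with a 95% counting interval of 1.24 to 18.

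The beta chains that pair with αv differed from one another. Itgb5 (gene 16419, chr16:33829665-33949338, plus strand), a vitronectin receptor chain, was at 66.6 and 52.9 TPM in KO and at 24.8, 24.5 and 26.3 TPM in WT. Both KO libraries stood above WT, 2.4-fold on average (log2 change 1.26 ± 0.10 SE, interval 1.01 to 1.52, adjusted p = 0.00218; largest adjusted p over 16 alternatives 0.0285). Itgb6 (gene 16420), the epithelial chain whose αvβ6 receptor activates latent TGF-β, was at 71.0 and 22.9 TPM in KO and at 111, 113 and 117 TPM in WT. Both KO libraries lay below WT, but KO1 stood 3.1-fold above KO2, and the gene did not pass (log2 change -1.25 ± 0.46 SE, interval -2.41 to -0.08, adjusted p = 0.0819). With a separate spread for each group the adjusted p of Itgb6 was 0.0175; without KO1 the log2 change was -2.30 (adjusted p = 4.0e-07) and without KO2 -0.64 (adjusted p = 6.4e-05).

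Of the 4 αv beta partners together, Itgb5 made up 48.2 and 69.5% of the TPM in KO and 18.2, 17.9 and 18.4% in WT. Itgb6 made up 51.4 and 30.1% in KO and 81.8, 82.1 and 81.6% in WT. The ratio of Itgb5 to Itgb6 was 0.938 and 2.31 in KO and 0.223, 0.218 and 0.226 in WT, so WT libraries were alike and KO libraries far apart on the same side. Itgb8, another chain that binds latent TGF-β, had 12 and 8 counts in KO and 0 in each WT library. Its CPM was at least 10.2-fold higher in KO, taking 3 counts over the WT group as the floor, and the counts are too few for more. Itgb3, the αv partner of platelets and endothelium, had 6 and 3 counts in KO and 0, 3 and 1 in WT, a ratio of 3.43 (0.957 to 15.2).

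Itgb1, the beta chain shared by α1, α2, α3, α5 and most other matrix receptors here, was at 370 and 346 TPM in KO and at 505, 445 and 427 TPM in WT. Both KO libraries lay below WT, and the difference did not pass (log2 change -0.34 ± 0.11 SE, interval -0.63 to -0.05, adjusted p = 0.0654). Without KO1 or KO2 that p was 0.00738 and 0.0334, and DESeq2 called the gene lower. Itgb1 made up 32.5 and 33.5% of beta chain TPM in KO and 45.4, 43.7 and 42.5% in WT. Itga4, which pairs with β1 in migrating cells, was at 0.47 TPM in each KO library and at 0.42, 0.63 and 0.57 TPM in WT, with overlap (log2 change -0.17, adjusted p = 0.61). Itga9, a receptor chain for tenascin-C, had 6 and 7 counts in KO and 0, 1 and 3 in WT, a ratio of 4.95 (1.53 to 20.9).

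The 6 leukocyte chains were near 0, and none of the 2 tested was called (Itgam and Itgb7 also had an unadjusted p above 0.05 in edgeR, and DESeq2 called neither). They summed to 0.96 and 3.21 TPM in KO and to 1.44, 1.74 and 0.99 TPM in WT. Itgb7, the beta chain of gut-homing and intraepithelial lymphocytes, was at 0.30 TPM in KO1 and 2.63 TPM in KO2, on either side of the WT libraries at 0.90, 0.93 and 0.58 TPM. Its log2 change was 0.89 ± 0.83 (SE; adjusted p = 0.427), with 1.73 (adjusted p = 0.0021) without KO1 and -1.45 (adjusted p = 0.0466) without KO2. Itgae, which pairs with it, had 9 and 3 counts in KO and 4, 6 and 4 in WT. Itgam, the alpha chain of a complement receptor, of which 68.7% of exonic bases are shared with Gm49368, had a log2 change of 0.13 (adjusted p = 0.84). Itgb2, the shared beta chain of leukocytes, and the alpha chains Itgal and Itgax had at most 9 counts in any library. Ptprc, the pan-leukocyte marker, and 5 other leukocyte markers stayed below 1 TPM in every library. Of 3 tested, 1, Cd68, was higher in KO (33.3%, against 40.8% of all genes). The list summed to 66.1 and 56.8 TPM in KO and to 44.5, 50 and 41.7 TPM in WT, of which Cd68 alone made 65.4 and 56.3 TPM in KO. The adjusted p of Cd68 was 0.018, against 0.0646 with a separate spread and 0.0837, 0.0485 and 0.0791 without WT1, WT2 or WT3. Lyz2, of the same list, had a log2 change of -3.45 (adjusted p = 0.106).

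The laminin alpha chains decide which receptors a trimer binds, and 3 of 5 were higher in KO (60% called, against 40.8% of all genes). Lama3, which encodes the alpha chain of the main laminin of the epidermal basement membrane, was at 499 and 606 TPM in KO and at 769, 668 and 665 TPM in WT. Both KO libraries lay below WT, and the difference did not pass (log2 change -0.32 ± 0.14 SE, interval -0.68 to 0.04, adjusted p = 0.126). Without KO2 the log2 change of Lama3 was -0.46 (adjusted p = 0.00351). Lama5 (gene 16776, chr2:180176373-180225904, minus strand), the alpha chain of the other epidermal laminins, was at 54.6 and 107 TPM in KO and at 39.0, 39.0 and 41.4 TPM in WT. Both KO libraries stood above WT and KO2 was 1.96-fold above KO1 (log2 change 1.04 ± 0.27 SE, interval 0.36 to 1.72, adjusted p = 0.0312). Its log2 change was 1.43 without KO1 and 0.49 without KO2. Leaving out WT1, WT2 or WT3, the adjusted p of Lama5 was 0.109, 0.107 and 0.0996.

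Lama3 made up 89.4 and 84.3% of laminin alpha TPM in KO and 94.9, 94.2 and 93.9% in WT. Lama5 made up 9.78 and 14.9% in KO and 4.81, 5.49 and 5.84% in WT. The ratio of Lama5 to Lama3 was 0.109 and 0.176 in KO and 0.0507, 0.0583 and 0.0622 in WT, with no overlap.

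Lama4 (gene 16775, chr10:38963989-39110188, plus strand), known from the basement membranes of vessels, muscle and fat, was at 3.87 and 4.74 TPM in KO and at 1.14, 1.01 and 1.15 TPM in WT. The groups were well apart, 3.96-fold (log2 change 1.99 ± 0.16 SE, interval 1.60 to 2.38, adjusted p = 0.00213; largest over 16 alternatives 0.0283). Lama2 (gene 16773, chr10:26949740-27617191), the alpha chain of muscle and nerve, was at 0.26 and 0.37 TPM in KO and at 0.06, 0.05 and 0.04 TPM in WT, from 62 counts in KO and 14 in WT. Its log2 change was 2.70 ± 0.38 (SE; interval 1.76 to 3.65; adjusted p = 0.00579). The fibroblast and the pericyte and smooth muscle marker sums given beside Itga1 were also higher in both KO libraries, and their part in Lama2 and Lama4 was not tested. Lama1, a chain of embryonic basement membranes, was at 0.36 and 0.98 TPM in KO and at 1.01, 1.18 and 0.62 TPM in WT, with overlap (log2 change -0.45 ± 0.50 SE, adjusted p = 0.499). Without KO2 the log2 change of Lama1 was -1.35 (adjusted p = 0.0207), and without KO1 it was 0.09.

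Of the beta chains, Lamb2 and Lamb1 were higher in KO and Lamb3 was not called. Lamb2 (gene 16779, chr9:108479847-108490530, plus strand), a chain best known from the neuromuscular junction and the kidney filter, was at 29.8 and 29.6 TPM in KO and at 10.1, 11.0 and 8.98 TPM in WT. The KO libraries were nearly equal and 3.01-fold above WT (log2 change 1.59 ± 0.10 SE, interval 1.34 to 1.84, adjusted p = 0.0015; largest over 16 alternatives 0.0251). Lamb1, the beta chain of most other trimers, was at 60.3 and 67.1 TPM in KO and at 51.5, 47.3 and 48.9 TPM in WT. The groups did not overlap (log2 change 0.40 ± 0.08 SE, interval 0.19 to 0.61, adjusted p = 0.0174). That p was 0.0632 with a separate spread for each group, and 0.0657, 0.0847 and 0.0811 without WT1, WT2 or WT3. The ratio of Lamb2 to Lamb1 was 0.494 and 0.441 in KO and 0.195, 0.233 and 0.184 in WT.

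Lamb3, which encodes the beta partner of the Lama3 chain, was at 527 and 405 TPM in KO and at 733, 644 and 614 TPM in WT. Both KO libraries lay below WT (log2 change -0.49 ± 0.16 SE, interval -0.89 to -0.09, adjusted p = 0.0584), and that p was 0.000588 without KO1 and 0.0285 without KO2. The count of laminin chains lower in KO was 0 by edgeR's quasi-likelihood test, 1 (Lamb3) at an unadjusted p under 0.05, and 1 (Lamb3) by DESeq2. Lamb3 made up 85.4 and 80.7% of laminin beta TPM in KO and 92.3, 91.7 and 91.4% in WT. The ratio of Lamb3 to Lama3 was 1.06 and 0.669 in KO and 0.953, 0.964 and 0.922 in WT, so KO1 and KO2 fell on either side of WT.

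Lamc1, the gamma chain of most laminins, was at 44.4 and 26.7 TPM in KO and at 37.2, 35.1 and 36.5 TPM in WT. KO1 lay above and KO2 below all WT libraries, and the log2 change over both was -0.01 ± 0.21 (SE; interval -0.55 to 0.53; adjusted p = 0.98). Without KO1 it was -0.44 (adjusted p = 0.000422), and without KO2 it was 0.33 (adjusted p = 0.00135). Lamc3 stayed below 1 TPM, with 0.19 and 0.13 TPM in KO and 0.17, 0.23 and 0.17 TPM in WT.

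**Figure D3:**
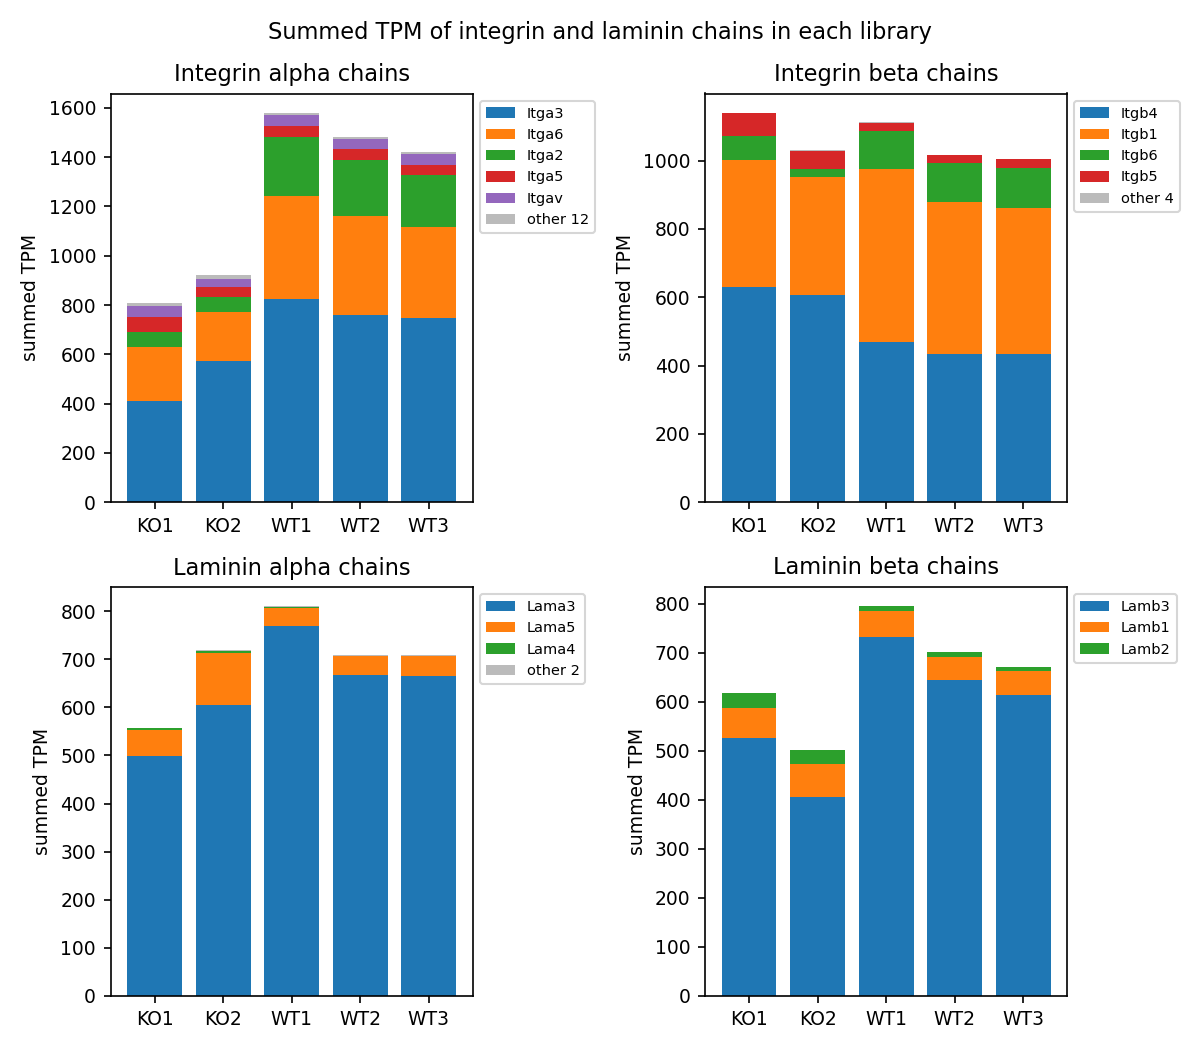
Summed TPM of the integrin alpha, integrin beta, laminin alpha and laminin beta chains in each library, as stacked bars coloured by gene. The integrin alpha bars reach 808 and 920 TPM in KO and 1422 to 1580 TPM in WT, while the integrin beta bars overlap and hold more Itgb4 and less Itgb1 in KO.

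The genes that act with these chains were counted from 4 lists, chosen with earlier results of these data known, of which 53 genes were tested and 22 were higher and 4 lower in KO (49.1%, against 40.8% of all genes). Of 7 hemidesmosome and anchoring genes, 2 were higher and 0 lower (28.6%, against 40.8% of all genes). They were Col7a1, which encodes anchoring fibril collagen, and Dst, whose BPAG1 product links β4 to keratin. Col7a1 was at 315 and 125 TPM in KO and at 66.9, 62.6 and 65.6 TPM in WT (log2 change 1.78 ± 0.37 SE, adjusted p = 0.0167), and KO1 stood far above KO2. Dst was at 263 and 384 TPM in KO and at 208, 202 and 214 TPM in WT (log2 change 0.64 ± 0.18 SE, adjusted p = 0.0362). Both calls were lost without WT1, WT2 or WT3, with adjusted p of 0.0729, 0.072 and 0.0716 for Col7a1 and 0.13, 0.132 and 0.117 for Dst. Col17a1, the collagen that binds α6β4, had a log2 change of 0.49 (adjusted p = 0.0708), and Krt5 one of 0.35 (adjusted p = 0.233).

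Of 18 other basement membrane genes 16 were tested, and 7 were higher and 2 lower (56.2%, against 40.8% of all genes). Col4a5, a type IV collagen chain, was at 17.3 and 15.1 TPM in KO and at 4.78, 5.25 and 5.10 TPM in WT (log2 change 1.69 ± 0.10 SE, adjusted p = 0.00128). Nid1, whose product bridges laminin and type IV collagen, was at 8.73 and 5.57 TPM in KO and at 48.8, 38.5 and 68.6 TPM in WT (log2 change -2.84 ± 0.34 SE, adjusted p = 0.00413). Nid1 thus differed in direction from the called laminin chains Lama2, Lama4, Lama5, Lamb1 and Lamb2. Lama3 and Lamb3, which were not called, lay below WT in both KO libraries, as Nid1 did. The 10 laminin chains together summed to 1219 and 1247 TPM in KO and to 1643, 1447 and 1417 TPM in WT. Ntn4, a laminin-related netrin, and Agrn, a laminin-binding proteoglycan, were higher with log2 changes of 1.35 and 0.89. Without WT1, WT2 or WT3, 3, 3 and 7 of the 16 were higher and 1 was lower each time. The calls over all genes then fell from 5286 to 1957, 2282 and 2244.

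Of 16 tested genes for RGD-type ligands and latent TGF-β, 10 were higher and 0 lower. That is 62.5% called, against 40.8% of all genes in either direction and 20.4% higher. The median log2 change of the list was 1.43. Among those higher, Postn and Fbn1 had at most 6 counts in any WT library and passed the count filter through their KO counts. Set against the WT mean, the list's median was 1.78 in KO1 and 1.03 in KO2. The fibroblast and the pericyte and smooth muscle marker sums given beside Itga1 were likewise higher in both KO libraries and highest in KO1, and their part in this list was not tested. The 4 with the smallest p were Mfge8, Tnc, Ltbp3 and Postn. Mfge8, a ligand of αv integrins, was at 166 and 155 TPM in KO and at 26.6, 27.5 and 29.5 TPM in WT (log2 change 2.54 ± 0.08 SE, adjusted p = 0.000223). Tnc, the wound matrix protein tenascin-C, was at 213 and 147 TPM in KO and at 30.6, 29.3 and 25.9 TPM in WT (log2 change 2.63 ± 0.18 SE, adjusted p = 0.00174). Postn, an αv ligand, was at 10.5 and 4.29 TPM in KO and at 0.03, 0.13 and 0.03 TPM in WT. Without WT1, WT2 or WT3, 6, 6 and 7 genes of the list were higher. The calls over all genes then fell from 5286 to 1957, 2282 and 2244.

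Of 14 genes for integrin activation and adaptors, 3 were higher and 2 lower (35.7%, against 40.8% of all genes). Lims1, the PINCH1 adaptor, was at 57.3 and 55.6 TPM in KO and at 93.4, 90.9 and 91.5 TPM in WT (log2 change -0.68 ± 0.07 SE, adjusted p = 0.00304). Parva, the α-parvin that joins PINCH in 1 complex with integrin-linked kinase, was at 91.9 and 74.6 TPM in KO and at 142, 140 and 151 TPM in WT (log2 change -0.77 ± 0.12 SE, adjusted p = 0.00695). Kank2, an activator of talin, had a log2 change of 0.64 (adjusted p = 0.0106), and Fermt2, or kindlin-2, one of 0.70 (adjusted p = 0.0354). Those 2 calls and the third higher call were lost without WT1, WT2 or WT3, with adjusted p of 0.0591, 0.0525 and 0.0558 for Kank2 and 0.105, 0.118 and 0.0972 for Fermt2.

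**Figure D4:**
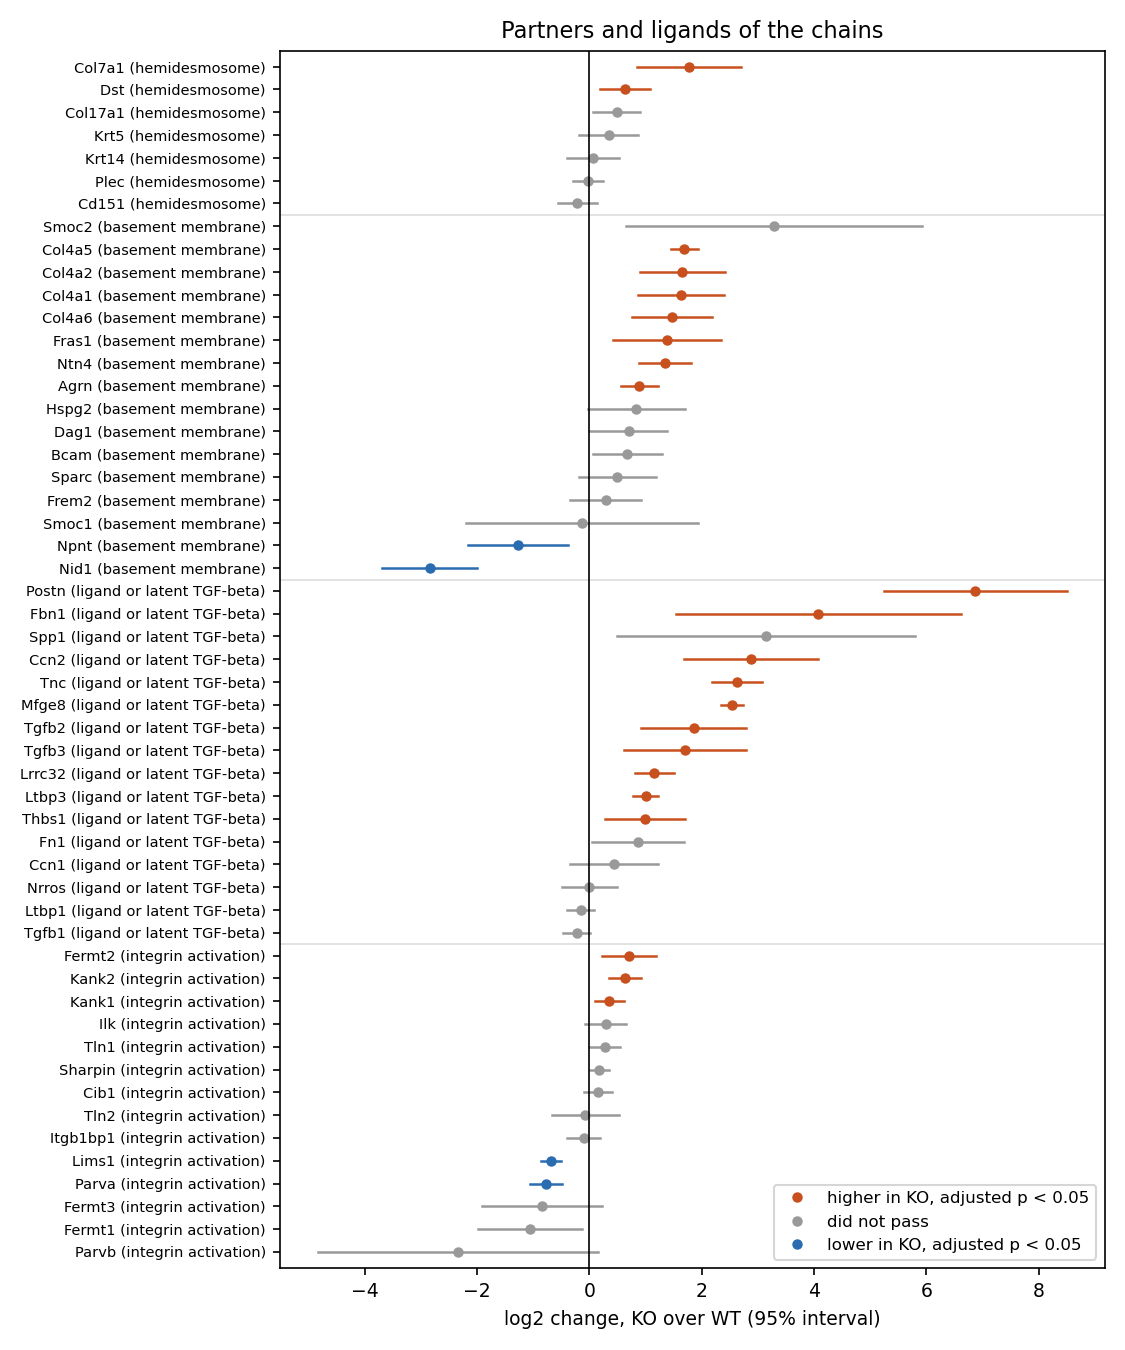
Log2 change, KO over WT, of the tested genes of the 4 lists of partner genes, each a point with its 95% interval; orange is higher and blue lower in KO at an adjusted p under 0.05, and grey did not pass. Most ligand genes lie above 0, up to Postn at 6.87, and Nid1 at -2.84 is the lowest basement membrane gene.

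The members lie on 14 chromosomes, with 7 on chromosome 2, 5 on chromosome 11 and 4 on chromosome 10. Apart from Itga2 and Itga1, Itgam and Itgax are the closest neighbours, 11.1 kb apart, and Itgax had 1 count in all. The deposited domain annotation gives the von Willebrand factor A domain to 8 alpha chains, the collagen-binding Itga1, Itga2, Itga10 and Itga11 and the leukocyte chains Itgae, Itgal, Itgam and Itgax. It also gives it to Itgb5, a beta chain, which was higher in KO. Of the 8 alpha chains, 4 were tested, and Itga1 and Itga10 were higher and Itga2 lower. Over the 26 tested members, the median absolute log2 difference between KO1 and KO2 was 0.28, and the median log2 range over the WT libraries was 0.22. These measures are unlike, since a range over 3 libraries tends to be wider than a difference between 2. The biological coefficient of variation over all tested genes was 28.9% in KO and 5.22% in WT.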

How the data were processed

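RNA of cultured epidermal stem cells was sequenced in 2 libraries labelled KO and 3 labelled WT, grouped by title. The authors deposited 1 table with expected counts, TPM and FPKM per gene and library. The deposited expected counts are RSEM 1.3.1 estimates on the GRCm38.p6 build, per the submitters' processing notes; of the aligner and the strand setting nothing is said in the sources used here. RSEM divides reads between genes by probability, so 32.1 to 34.0% of the values were not whole. The deposited TPM, per the file headers, are scaled by the authors for transcript length within each library, and served for levels. FPKM was not used.

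Expected counts were rounded and tested over the whole table in R 4.3.3 with edgeR 4.0.16: filterByExpr by group, TMM factors (0.988 to 1.02), the quasi-likelihood test, two-sided, Benjamini-Hochberg adjustment, threshold 0.05, no covariate. Standard errors come from the test statistic and 95% intervals from its degrees of freedom. Counting intervals and floors (3 counts) cover counting error only. Alternatives used DESeq2 1.42.0, limma 3.58.1, other scalings and filters, each library left out, a separate spread per group, a block on replicate number, and class sums without their highest member. Libraries of a group differed beyond sampling noise (chi-square per degree of freedom 107 for KO1 and KO2, 3.45 to 6.45 among WT), and each was counted.

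The members, lists and tests were chosen with earlier results of these data known. All 35 gene identifiers were found in RefSeq for GRCm38.p6, 28 at identical coordinates; coordinates are the deposited ones, whose strand differs from GENCODE M21 for Itga1, Itga2b and Lama2. Promoter sequences are from RefSeq (GRCm38.p6). Values are given for each called member, for Itga2, Itga3, Itga6, Itgb1, Itgb4, Lama3, Lama5 and Lamb3 in any case, and for up to 4 genes with the smallest p in each partner list. The values per library of other members were chosen after they were seen.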

Additional observations from a re-analysis of the deposited data

How the results depend on the processing

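For 17 chains, those called and the main epidermal ones, up to 16 alternatives gave 268 values. Of these, 0 turned direction, 35 lost and 9 gained a call. Among the tested chains outside these 17, Lamc1 turned direction in 6 of 16 alternatives and Itgam in 3 of 14. Itgb7, Lama1 and Lamc3 turned in 1 each, and Itga4, Itga5, Itgav and Itgb6 in 0. All genes called numbered 5286, against 3192 with a separate spread per group and 1598 with the replicate block, and 1957 to 8068 with a library left out. Integrins higher numbered 6, against 3 with a separate spread and 2 with the block, and 2 to 7 with a library left out. Integrins lower numbered 3, against 5 in DESeq2 and 1 with the block, and 2 to 6 with a library left out. Laminins higher numbered 5, against 3 with the block and 3 to 6 with a library left out. Laminins lower numbered 0, against 1 in DESeq2 and 1 in limma on log2(TPM + 1) over genes with a mean TPM of at least 1, and 0 to 3 with a library left out. Partner genes higher numbered 22, against 12 with the block and 14 in limma on log2(TPM + 1), and 9 to 38 with a library left out. Partner genes lower numbered 4, against 2 with the block and 3 to 7 with a library left out. Angptl4 had a log2 change of -2.51 (adjusted p = 0.127) with a separate spread and -2.74 (adjusted p = 0.0268) with the block. The replicate numbers of the labels are only numbers: deviations from the group means correlated by 0.00714 between KO1 and WT1 and 0.0676 between KO2 and WT2. With the block the adjusted p of Itga6 was 0.0569, and 8 of the 14 called members lost their call. No KO library carries the replicate number of WT3, so with the block WT3 did not enter the comparison of KO with WT. The cause of these changes was not tested further. As log2 ratios of mean sums, KO over WT, the laminin-binding chains moved from -0.29 to -0.02 without Itga3, the collagen-binding from -1.83 to 1.51 without Itga2, the αv beta partners from -0.44 to 1.24 without Itgb6, the laminin alpha chains from -0.23 to 0.96 without Lama3 and the laminin beta chains from -0.37 to 0.66 without Lamb3, since these carry most of each sum. With no count filter Itgb8 was also called. At this depth, members under about 20 counts in every library carry wide counting intervals.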
